A study of Populus trichocarpa and Populus tremula x Populus alba with 22 samples.

Results

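In poplar plants labelled as overexpressing the transcription factor PtrbHLH011, 118 genes stood higher than in empty-vector plants in leaf and lower in stem. They were chosen by their values from 42950 genes. The log2 ratio of a gene in a table was that of the case mean plus 1 to the control mean plus 1. A member had a ratio of at least 1 (2-fold) in leaf and of -1 or lower in stem. In both tables its mean over all libraries was at least 50, and case and control values did not overlap. In addition, its ratio of Fe-deprived to Fe-sufficient plants lay within 1 of 0 in young leaf and in the 3rd internode. Values are normalized counts, that is, reads per gene scaled with 1 factor per library, and group values are given as mean ± SD. Ratios in these 4 contrasts chose the members and are given as a description, with no test.

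The overexpression plants were 4-month-old Populus tremula x Populus alba. Each genotype was represented by 3 leaf and 2 stem libraries. Both genotypes are transgenic. The overexpression libraries share 1 line-like name stem and the empty-vector libraries another, and no source used here gives the promoter of the construct or the number of independent lines. The Fe experiment used Populus trichocarpa grown hydroponically for 21 days with 10 µM Fe or with 0 µM Fe, with young leaf and 3rd internode sampled from 6 plants (3 libraries per tissue and Fe level). The titles call the libraries of a group biological replicates, and whether each transgenic library came from a plant of its own is not stated.

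Basic helix-loop-helix proteins are transcription factors that bind DNA as dimers, usually at short palindromic E-box motifs. Several of them form the network by which plants sense and take up iron, and in Arabidopsis the protein named bHLH11 acts as a repressor in that network. A leaf is rich in photosynthetic cells, while a poplar stem holds cambium, phloem and xylem whose cells lay down thick cell walls. A gene can therefore be read in both organs but in different cell types.

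Library depth was 26620695 to 30101710 reads in the overexpression experiment and 29840597 to 68689878 in the Fe experiment. The files give gene IDs alone, and none could be looked up in the annotation supplied (assembly P.trichocarpa_v4.1, 0 matches), so genes are given by ID without a function and no sequence is shown. For the same reason the level of PtrbHLH011 and markers of leaf and stem cells were not checked against the labels. IDs follow the P. trichocarpa gene set, while the transgenic plants are a hybrid of other species, and the effect of that on the counts was not tested. In bulk tissue, fewer cells of a type and less RNA per cell cannot be told apart.

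Of 22472 genes with a mean of at least 50 in the leaf table, 1755 (7.81%) met the leaf condition, and 3.44% met its mirror image, lower in leaf. Of 20288 in the stem table, 1517 (7.48%) met the stem condition, and 10.1% were higher in stem by the same limits. Both were met by 236 of the 18771 genes with that mean in both tables (1.26%), and the limits on the Fe ratios left 118 (0.629%). The reverse pattern, lower in leaf and higher in stem, was held by 209 genes (1.11%), of which 187 (0.996%) were within the same Fe limits. A gene enters the group with a leaf and a stem difference together, so these shares describe the choice and nothing is read from them.

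The rule set the same 2-fold limit in both organs, and the members' median differences were of similar size. Their leaf log2 ratio had a median of 1.45 and a range of 1.01 to 5.27, against a median of -0.02 over the 18771 genes. Their stem log2 ratio had a median of -1.51 and a range of -5.25 to -1.01, against 0.02. The difference was larger in leaf for 59 members and larger in stem for the other 59. The Spearman rho of the leaf and stem ratios across the 118 members was -0.01. Both ratios were cut off at the limits of the rule, so no relation between the organs is read from these values. Ratios reached 4-fold in leaf for 30 members, in stem for 28 and in both for 9.

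**Figure D1:**
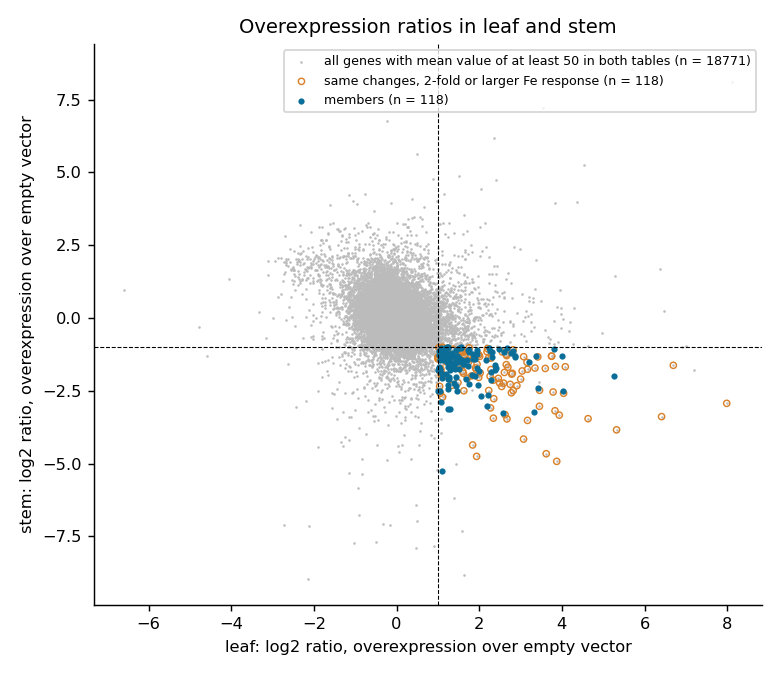
Log2 ratio of overexpression to empty vector in leaf (x axis) and in stem (y axis) for 18771 genes (grey), with the 118 members in blue and the 118 genes with the same differences but a 2-fold or larger Fe response in orange. Dashed lines mark the 2-fold limits, and the members crowd near the corner of the limits, with medians of 1.45 and -1.51.

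Taken over all members, the medians of the 2 genotypes lay apart in both organs, as the choice of members requires. Relative to the mean of the empty-vector leaves, the members' median log2 value lay at -0.15, 0.13 and 0.04 in the 3 empty-vector leaves and at 1.34, 1.64 and 1.62 in the 3 overexpression leaves. Relative to the empty-vector stems it lay at -0.13 and 0.13 in these and at -1.41 and -1.56 in the 2 overexpression stems. The median of all genes stayed within 0.03 of 0 in each of these libraries. The medians of the 2 empty-vector stems mirror each other because they are centred on their own mean. Of the 118 members, 83 were higher in the second empty-vector stem than in the first. For single genes the gap between the groups was often narrow. The lowest overexpression leaf was at least 2-fold above the highest empty-vector leaf for 43 members, and the lowest empty-vector stem was at least 2-fold above the highest overexpression stem for 71. Both held for 24 members. The rule required no overlap in these groups, and the counts cover the members alone, with no share over all genes. They describe the choice. Leaving out each of the 10 libraries in turn, 46 members met the conditions every time.

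**Figure D2:**
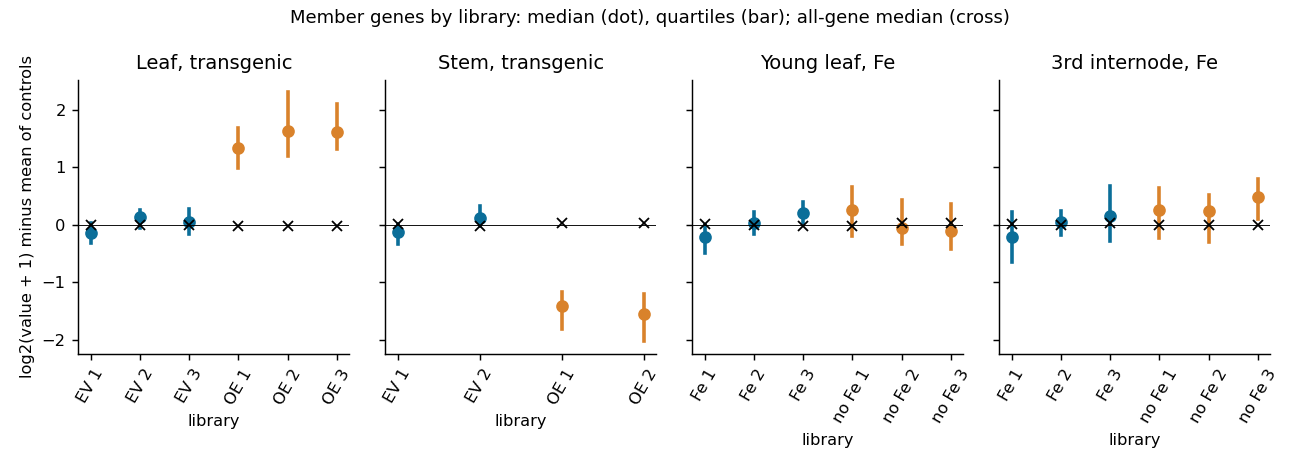
Each library's median over the 118 members (dot) and quartiles (bar) of log2(value + 1) minus the mean of the control libraries, with the median of all 18771 genes as a cross, controls in blue and overexpression or Fe-deprived libraries in orange. The overexpression leaves lie at 1.34 to 1.64 and the overexpression stems at -1.56 to -1.41, while the young leaves without Fe lie at -0.11 to 0.26.

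Levels in the empty-vector plants spanned a wide range. Member means ran from 11.4 to 15020 (median 158) in empty-vector leaves and from 73.8 to 16944 (median 298) in empty-vector stems. Under overexpression the median was 437 in leaf and 96.1 in stem, where 60 of the 118 members had a mean under 100. Close to the limits, the 2 members with the lowest leaf ratios had 1.01 each, and the 2 genes that failed only this limit had 0.992 and 0.9995. The 2 members nearest the stem limit had -1.01 each, and the 2 genes just outside it -0.998 and -0.996.

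The member with the largest difference in both organs, by the smaller of the 2, was Potri.002G176300. Its values were 172, 262 and 184 in empty-vector leaves and 1592, 1233 and 3428 in overexpression leaves. In stem it had 1265 and 2545 with the empty vector and 260.5 and 141 under overexpression. The lowest case leaf was thus several times the highest control leaf, and the organs stood in the opposite order in the 2 genotypes: means were 206 ± 49.2 in leaf and 1905 ± 905 in stem with the empty vector (n = 3 and 2), and 2084 ± 1177 in leaf and 201 ± 84.8 in stem under overexpression (n = 3 and 2). The difference in stem was 9.46-fold with both empty-vector stems, and its log2 ratio went from -3.24 to -2.65 without the second of them. In the Fe experiment it ranged from 212 to 460 in Fe-sufficient young leaves and from 231 to 453 in Fe-sufficient internodes, which overlapped.

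Potri.002G106800 came next by the smaller of its 2 differences. It had 172, 232 and 123 in empty-vector leaves and 582, 1477 and 1109 in overexpression leaves. In stem it had 2317 and 1920.1 with the empty vector and 271 and 170.4 under overexpression, the second lowest stem ratio of all members (log2 ratio -3.26). Its nearest libraries of the 2 genotypes were more than 2-fold apart in both organs. Fe-sufficient internodes varied widely for this gene, at 669.7, 4896 and 5697.

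The highest leaf ratios belonged to Potri.012G069700 and Potri.002G126300. The former had 13.4, 13.2 and 15.2 in empty-vector leaves and 235, 986 and 499 in overexpression leaves, a 38.5-fold difference of the means. Its stem values were 75.9 and 114 with the empty vector and 21.8 and 24.1 under overexpression. Its leaf log2 ratio of 5.27 was 4.62 without the second overexpression leaf. Potri.002G126300 had 275, 492 and 291 in empty-vector leaves and 6587, 5642 and 5046 in overexpression leaves, where its libraries differed little from each other. In stem it went from 192 and 168 to 18.8 and 43.3. Without the second overexpression stem its stem log2 ratio moved from -2.49 to -3.19. Its 12 Fe libraries lay between 82.9 and 175, and its tissues and Fe levels overlapped.

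The lowest stem ratio, -5.25 for Potri.006G165500, rested on few reads and on 1 library. Its stem values were 19.5 and 205 with the empty vector and 3.96 and 0 under overexpression. Without the second empty-vector stem the ratio was -2.78, and without the first overexpression stem -6.82. Its difference in leaf was small, from 219.9, 210.4 and 203 to 461, 227 and 672, so that the lowest case leaf barely cleared the highest control leaf.

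Some members had high counts in stem. The highest normalized counts in empty-vector stem, which are not divided by gene length, were those of Potri.014G096100 and Potri.001G336766. Potri.014G096100 had 20198 and 13690.3 there and 8023 and 7333 in overexpression stems. Its stem log2 ratio of -1.14 was -0.83 without the first empty-vector stem, short of the rule's limit. In leaf it went from 1772, 2501 and 2414 to 4754, 17712 and 9559.6, so its overexpression leaves differed among themselves by more than its empty-vector leaves. Potri.001G336766 had 3313 and 10329.8 in empty-vector stems and 1709.5 and 1033 in overexpression stems. Its stem log2 ratio of -2.31 was -1.27 without the second empty-vector stem and -2.91 without the first. Its leaf values were 117, 81.3 and 198 with the empty vector and 310.4, 250.1 and 386 under overexpression, which did not overlap. Its leaf log2 ratio of 1.25 was 0.998 without the second empty-vector leaf, just short of the rule's limit.

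**Figure D3:**
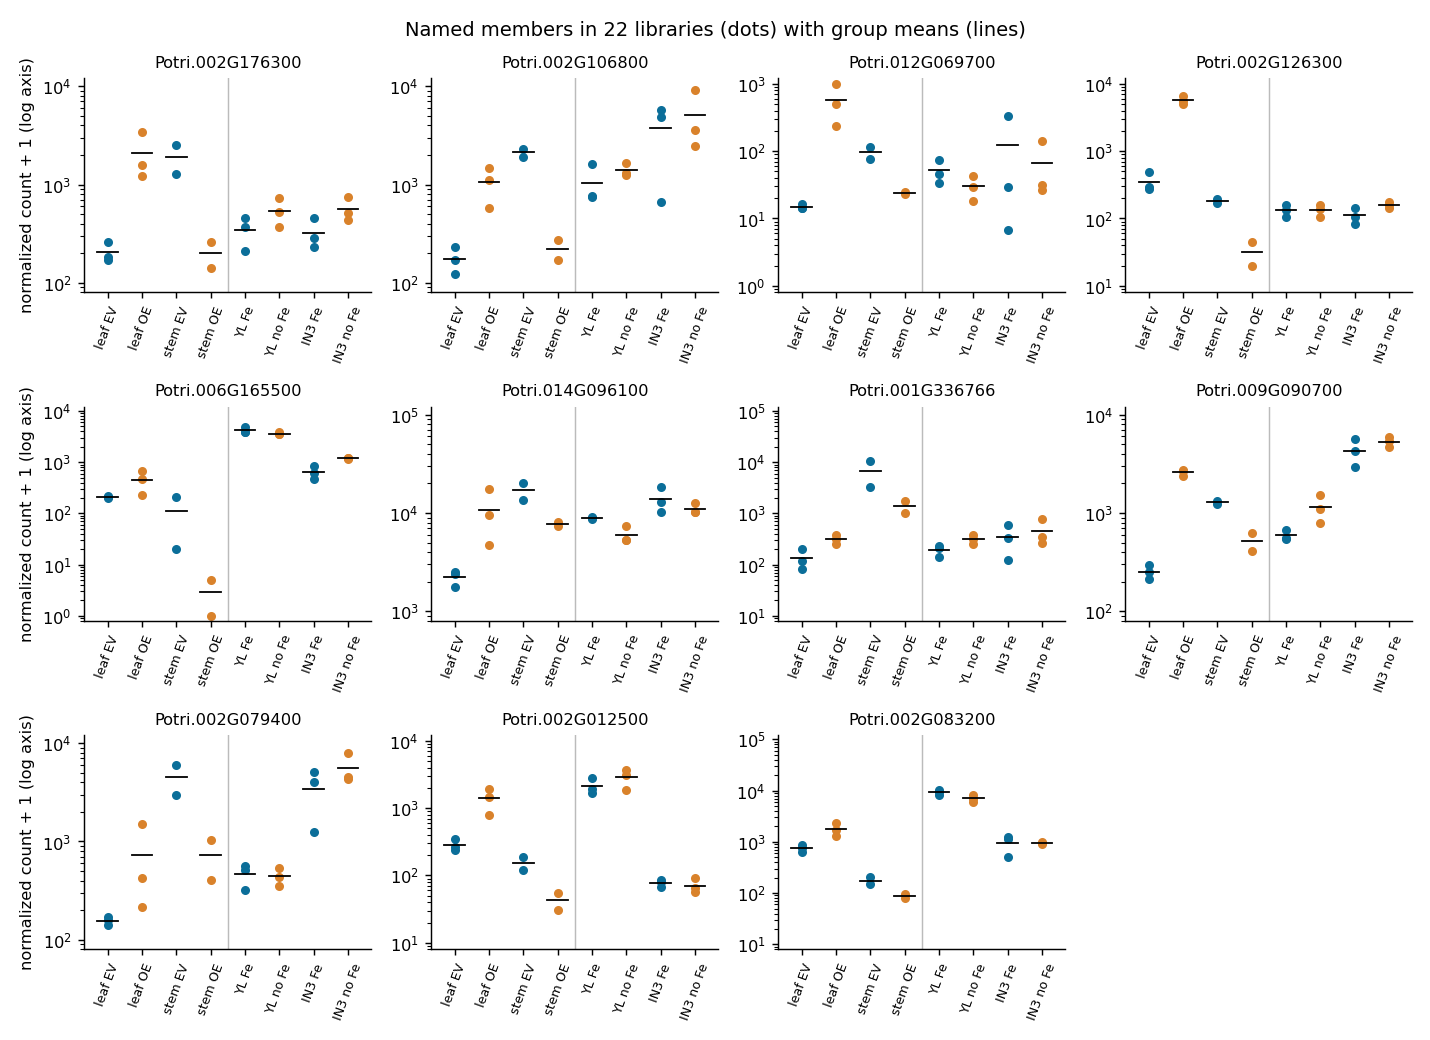
Normalized count plus 1 (log axis) of the 11 named members in all 22 libraries, as dots, with a line at each group mean, for leaf and stem with the empty vector (EV) and overexpression (OE), and young leaf (YL) and 3rd internode (IN3) with and without Fe. In every panel the OE leaves lie above the EV leaves and the OE stems below the EV stems, as the choice of members requires, while the panels differ in how far young leaf and internode lie apart.

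The limits on the Fe ratios removed as many genes as they kept. Of the 236 genes higher in leaf and lower in stem under overexpression, 118 (50%) had a Fe ratio outside the limits in at least 1 tissue. This compares with 22 of 209 genes (10.5%) of the reverse pattern and with 2414 of the 18771 genes (12.9%). In young leaf, 64 of the 236 (27.1%) had a log2 ratio of -1 or lower without Fe and 28 (11.9%) had 1 or higher, against 4.68% and 3.40% of the 18771. In the internode, 37 (15.7%) had 1 or higher and 17 (7.20%) had -1 or lower, against 3.54% and 3.41%. The Fe and overexpression experiments share no library. The members are thus the part of the leaf-up, stem-down genes that lacked a 2-fold Fe response, not a sample of them.

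**Figure D4:**
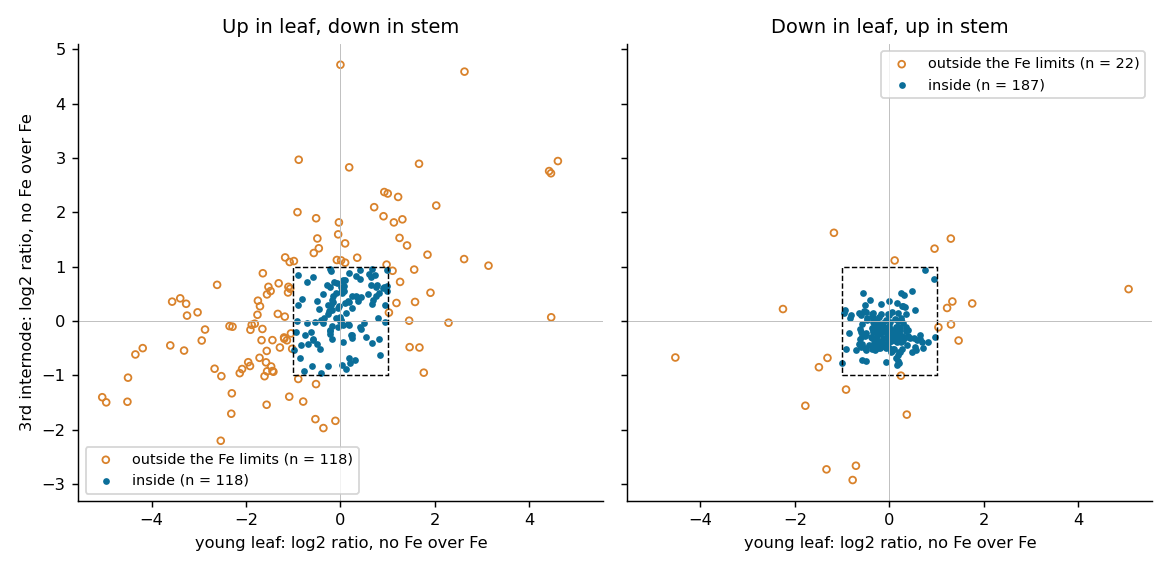
Log2 ratio of Fe-deprived to Fe-sufficient plants in young leaf (x axis) and 3rd internode (y axis) for genes higher in leaf and lower in stem under overexpression (left) and for the reverse pattern (right). Points inside the dashed limits are blue, 118 on the left and 187 on the right, and points outside are orange, 118 on the left and 22 on the right.

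Within the limits, the members' Fe ratios spread on both sides of 0. In young leaf the median log2 ratio was 0.02, as over all genes (0.02), with 63 of 118 members above 0. In the internode the median was 0.24 against -0.03 over all genes, with 71 of 118 above 0 (60.2%, against 46.0% of all genes). The members' median in the single internode libraries, relative to the Fe-sufficient mean, was -0.20, 0.05 and 0.16 with Fe and 0.26, 0.25 and 0.49 without it, so these 2 groups of medians did not overlap. The medians of the young leaves did overlap. Without Fe, 26 members lay above all Fe-sufficient internodes and 7 below (13.4% and 13.7% of all genes). In young leaf 18 lay above and 8 below (16.7% and 15.3% of all genes). The rule used these contrasts, so nothing is read from these counts.

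Low values passed the Fe limits without a measurable response. Means in both Fe groups were under 10 for 3 members in young leaf and for 2 in the internode, and both of the latter were low in all 4 groups. One of them, Potri.010G061600 (named after its values were seen), had 0 reads in all 12 Fe libraries. In a single library 0 reads allow an expected count of up to 3, and 0 in all 12 allow less per library. For these genes a Fe response was not detectable at this depth.

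The order of leaf and stem was set against each other as counts per 1000000 reads of the library total (CPM), since leaf and stem were normalized in separate tables. In empty-vector plants 84 of the 118 members were higher in stem (71.2%, against 47.3% of the 18771 genes) and 34 higher in leaf, with a median stem minus leaf difference of 0.92 in log2(CPM + 1). Over the 18771 genes the median was -0.09. Under overexpression 107 members were higher in leaf (90.7%, against 56.6% of the 18771 genes) and 11 higher in stem, with a median of -1.90 against -0.19. A higher leaf and a lower stem value fix the direction of this shift, and the empty-vector libraries entered the choice, so it is a description.

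By the order of their group means, the members fell into 3 classes. In 73, stem was the higher organ with the empty vector and leaf under overexpression, with median stem minus leaf differences of 1.34 and -1.52. In 34, leaf was higher in both genotypes (medians -0.70 and -3.75). In 11, stem was higher in both (medians 3.57 and 0.59). A 2-fold difference that turned over, from 2-fold higher in stem to 2-fold higher in leaf, was seen in 30 members. For 67 members the overexpression stem mean was at or below the empty-vector leaf mean in CPM. The choice of members, by a higher leaf and a lower stem value, favours a turn from stem to leaf and a low overexpression stem. The counts in these classes are given for the members alone, with no share over all genes, so they are a description of the choice.

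**Figure D5:**
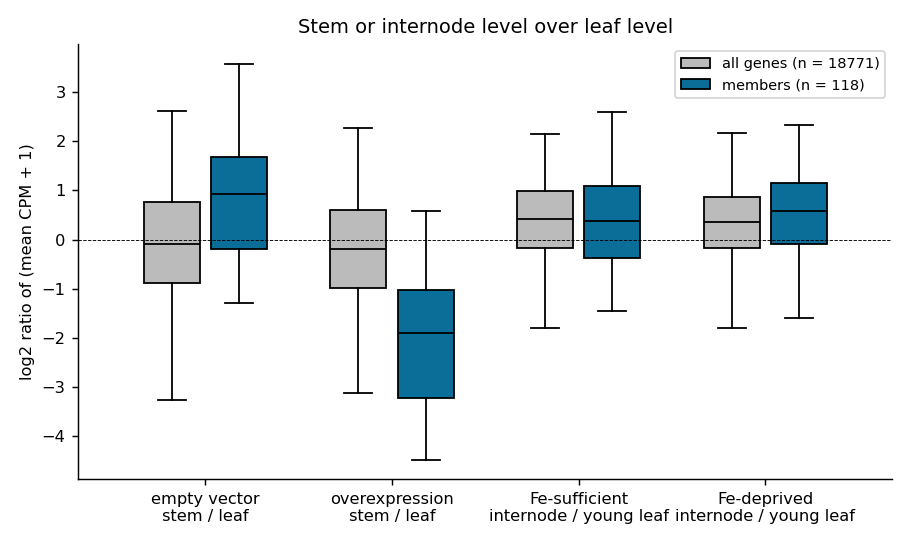
Log2 ratio of stem or internode to leaf, from group means in CPM plus 1, for all 18771 genes (grey) and the 118 members (blue), with boxes at the quartiles, a line at the median and whiskers at the 5th and 95th percentiles. The members' median is 0.92 with the empty vector and -1.90 under overexpression, and 0.38 and 0.58 in Fe-sufficient and Fe-deprived plants, where the medians of all genes are 0.41 and 0.35.

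Whether the members differ between stem-like and leaf tissue in untransformed plants was a measure the rule had not used. Internode and young leaf of the 3 Fe-sufficient P. trichocarpa plants were compared with limma on log2(CPM + 1), in a fit over 27191 genes. Of the 114 members tested, 32 were higher in the internode (36.3% of all genes), 17 were higher in young leaf (17.4% of all genes) and 65 passed in neither direction (limma adjusted p under 0.05). These are 28.1% and 14.9% of the members tested, both below the shares of the 27191 genes. The 27191 genes also hold genes below the members' limit on the mean, an unlike background. By group means, 28.8% of the 118 members and 24.3% of the 18771 genes were at least 2-fold higher in the internode. For young leaf these were 9.32% and 10.4%. Without the first Fe-sufficient internode, 41 of 113 members tested were called higher in the internode, against 32.1% of all genes. The median difference of the members tested was 0.37, against 0.34 over all genes tested. From group means, the measure used for the empty-vector plants, the medians were 0.38 for the 118 members and 0.41 for the 18771 genes. The empty-vector medians, 0.92 against -0.09, come from libraries that entered the choice of members.

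The split depended on the scaling. With TMM factors, which assume that most genes do not change, the median of all genes moved from 0.34 to 0.00 (-0.0039) and the members' median to 0.03. Members then numbered 23 higher in the internode (22.1% of all genes) and 25 higher in young leaf (25.9% of all genes), which are 20.2% and 21.9% of the members tested.

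In the 3 Fe-deprived plants 115 members were tested, of which 57 were higher in the internode (43.5% of all genes) and 18 higher in young leaf (19.8% of all genes). These are 49.6% and 15.7% of the members tested. Here the internode share was above that of all genes and the young leaf share below it. All genes again include genes below the members' limit on the mean. With TMM factors the counts were 47 and 25, which are 40.9% and 21.7% of the members tested, against 30.5% and 26.5% of all genes. Whether the members' shares differ from those of all genes, or between Fe levels, was not tested. The members called in both sets of plants numbered 46, which is 46 of 49 called with Fe and 46 of 75 called without. All 46 had the same direction, and since the rule keeps each member's Fe ratio within 1 of 0 in both tissues, this is no independent evidence of their direction. Each tissue was deposited as a table of its own, so a technical difference between the tables and the tissue difference cannot be told apart.

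The members with the largest tissue differences in Fe-sufficient plants kept their organ order across experiments in part. Potri.009G090700 had 2942, 4319 and 5694 in internodes and 543, 561 and 675 in young leaves, in normalized counts of separate tables. Its internode minus young leaf difference was 2.84 ± 0.21 SE in log2(CPM + 1) (limma adjusted p = 0.000155). In transgenic plants its leaves went from 213, 292 and 250.1 to 2386, 2763 and 2653, and its stems from 1228 and 1328 to 405 and 632, so that leaf was the higher organ under overexpression.

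Potri.002G079400 had 1239, 4024 and 5095 in Fe-sufficient internodes and 324, 557 and 506 in young leaves (difference 2.70 ± 0.47 SE, limma adjusted p = 0.00345). Its empty-vector stems, 2973 and 6019, were also above its empty-vector leaves, 158, 168 and 141. Under overexpression its mean was 719.7 ± 701 in leaf (n = 3) and 722 ± 444 in stem (n = 2), which were normalized separately. From group means in log2(CPM + 1), stem minus leaf was -0.08. The leaf mean was carried by the second library, with values of 212, 1519 and 428. The 4.60-fold leaf difference of the means had a log2 ratio of 1.03 without that library. Without the second overexpression stem the stem ratio moved from -2.64 to -3.46, and without the second empty-vector stem to -2.04.

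In the other direction, Potri.002G012500 had 67.0, 83.7 and 80.0 in Fe-sufficient internodes and 1649, 2831 and 1923 in young leaves (difference -3.93 ± 0.24 SE, limma adjusted p = 8.96e-05). It was the higher in leaf in transgenic plants as well, at 267, 236 and 350.1 in empty-vector leaves against 118 and 189 in empty-vector stems. Overexpression leaves had 1892, 1471 and 801 and overexpression stems 53.5 and 29.8. Potri.002G083200 had 1148, 1226 and 500.2 in internodes and 8281, 9604 and 10485 in young leaves (difference -3.19 ± 0.38 SE, limma adjusted p = 0.000801). Its leaf and stem ratios under overexpression were among those nearer the limits, from 886, 636 and 760.0 to 1324, 2352 and 1727 in leaf and from 202 and 146 to 93.1 and 78.0 in stem. The stem log2 ratio of Potri.002G083200, -1.02, fell short of the rule's limit without 1 library. It was -0.77 without the first empty-vector stem and -0.90 without the second overexpression stem. For these 4 genes all 3 Fe-sufficient internodes lay on the same side of all 3 young leaves. In the Fe-deprived plants their differences were 2.35, 3.62, -4.49 and -2.68. The limits on the Fe ratios hold the differences of the 2 sets of plants close to each other, so the shared sign at this size follows from the choice of members.

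Across the 118 members, the stem minus leaf difference of the empty-vector plants and the internode minus young leaf difference of the Fe-sufficient plants had a Spearman rho of 0.38, a description over genes that share the same libraries. Of the 73 members whose organ order differed between genotypes, 49 had a higher internode than young leaf mean in Fe-sufficient plants. The same held for 17 of the 34 with leaf higher in both genotypes and for 10 of the 11 with stem higher in both. Over the 18771 genes the share was 68.9%, and the 49 of 73 are 67.1%. These classes were made after the values were seen and were not tested.

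The number after "Potri." names the chromosome in this ID system, and members carried all 19 of these numbers, with 6 further members on unplaced scaffolds (T; 5.08% of members, 2.04% of the 18771 genes). Chromosome 1 held 13 members of the 118 (11.6% of the 18771 genes) and chromosome 2 held 12 (7.22% of the 18771 genes). Chromosome 7 held 9 (7.63% of members, 3.67% of the 18771 genes). No test was made of these shares. Only 1 pair of members stood in neighbouring rows of the tables. Of the 11 members named above by their values, 6 were on chromosome 2, which held 10.2% of all members. The 11 were picked as extremes of their values, so nothing is read from this count.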

How the data were processed

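The data were 22 RNA-seq libraries in 4 tables of 42950 genes, 1 table per organ and experiment. What was deposited is a normalized signal for every gene, named normalized counts per the labels, and the values themselves are whole reads scaled with 1 factor per library. The submitters' processing notes name the tools DESeq2 2.11.40.7, HISAT2 2.2.1 and StringTie 2.2.1, with no role for any. Per the labels' protocols, RNA kits and library types differed between the experiments, so they were never fitted together. Gene IDs are printed here without the version suffix of the deposited IDs, which names an earlier gene set than v4.1. Beyond that suffix, no source used here gives the genome build, the strand setting or the treatment of near-identical genes. Counts of near-identical genes are therefore uncertain. In 100% of values a whole number (within 0.001) came back on division by the smallest value above 0 of the library, and these are called reads. Precision is limited by 2 or 3 libraries per group. The third internode library of each Fe level is numbered apart from the other libraries of the series. Whether it was handled apart was not tested, and it was fitted with the others.

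The members, and the lists and tests here, were chosen with earlier results of these data known. The rule's mean of at least 50 was taken over all libraries of a table. CPM is each value per 1000000 of its column total, which does not depend on the size factors. Tissue differences were tested with limma 3.58.1 (R 4.3.3) with a trend on log2(CPM + 1), two-sided, with Benjamini-Hochberg adjustment over all genes with at least 0.5 CPM in at least 3 libraries. The fit was tested on simulated data. edgeR 4.0.16 and DESeq2 1.42.0 on the recovered reads were alternatives, as were other scalings, filters, pseudocounts, a plant block and leaving out each library. Internode and young leaf came from the same plants by the labels, and deviations of a plant's 2 libraries correlated at -0.064 to 0.35. Named genes were the first 2 members by the smaller of both changes, by leaf ratio, by stem ratio, by level in empty-vector stem, and by tissue difference in each direction. Cell type markers need gene names and were not used here.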

Additional observations from a re-analysis of the deposited data

How the results depend on the processing

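The number of genes that met the rule of 118 genes became 49 with a minimum mean of 200, 9 with a 4-fold limit and 236 with no limit on the Fe responses, as stricter or fewer conditions require. It was 77 with a mean of at least 50 in both groups and 145 with that mean in the higher group, both chosen after seeing the data. With other pseudocounts, a lower minimum mean, other scalings and overlap allowed it stayed within 1.5 times, at 108 to 176. The genes themselves changed in part. Upper-quartile scaling gave 110 genes, 105 of them among the 118 members, and quantile normalization gave 108, with 95 among the members. Leaving out each of the 10 libraries gave 91 to 141 genes and kept at least 82 members; 82 was without the second empty-vector stem. Members higher in young leaf in Fe-sufficient plants numbered 17 (17.4% of all genes), but 26 with DESeq2 (27.1% of all genes). Without each library they numbered 10 to 16 (11.98% to 18.67% of all genes). The lowest count and the lowest share both came without the second Fe-sufficient young leaf. The share of all genes thus also rose with DESeq2 and fell without that library, and the cause was not tested. Members higher in the internode in Fe-sufficient plants numbered 26 to 41 without each library (26.6% to 35.6% of all genes). In Fe-deprived plants they numbered 48 to 62 (34.0% to 47.2% of all genes). There, 16 to 19 were higher in young leaf (16.3% to 20.9% of all genes). edgeR's quasi-likelihood test gave 23 members higher in the internode and 24 higher in young leaf with Fe (22.2% and 25.1% of all genes). Without Fe it gave 44 and 24 (28.8% and 26.8% of all genes). With plant as a replicate block the counts were 31 and 19 with Fe (36.7% and 17.8% of all genes). Without Fe they were 57 and 19 (41.4% and 19.2% of all genes). In Fe-sufficient plants the 4 genes named by tissue difference kept their call under the 16 alternatives. The median Fe ratio ran from -0.12 to 0.15 in young leaf and from 0.14 to 0.31 in internode without each library. The overexpression contrasts have no paired analysis because no test was made in them. With 2 libraries per stem group, the order of 2 stems can rest on 1 library.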
